A study of Homo sapiens with 2 samples.

Results

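The BCL2 family of apoptosis regulators was examined in P493-6, a line of human B cells whose c-Myc transgene is held down by tetracycline. Its members were fixed as 10 genes by symbol, BCL2, BCL2L1, MCL1, BCL2A1, BAX, BAK1, BAD, BID, BCL2L11 and BBC3, out of 19096 gene symbols in the tables. All 10 were found in both libraries, and each was represented by the transcript row with the highest mean level over both. All 10 passed the filter on low values, a mean RPKM of at least 1 (RPKM are reads scaled to the length of the transcript and the depth of the library), as did 10272 genes in all. Polyadenylated RNA was sequenced from 1 low c-Myc library, taken 0 h after repression was lifted, and from 1 high c-Myc library, taken 24 h after it; they are called the 0 h and the 24 h library below. Both came from the same tetracycline-regulated line, described in the labels as a B-cell lymphoma. The c-Myc level and the time since its release cannot be told apart with these samples.

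The BCL2 family sets whether the outer membrane of the mitochondrion is breached, the step that releases cytochrome c and commits most cells to apoptosis. Pro-survival proteins hold the pore-forming proteins BAX and BAK1 in check, and the BH3-only proteins, named for the short helix they share, bind the pro-survival proteins or engage BAX and BAK1 directly. Mature B cells depend on several pro-survival members, and c-Myc is known both to drive B cell growth and to sensitise cells to death.

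The libraries held 103015410 reads at 0 h and 105364328 at 24 h, as recovered from the steps between the deposited values. At these depths 99.3% of the 23929 transcripts above 0 in both libraries had values that correspond to whole reads in both, within 0.0001 of a read. Each member rested on at least 262 reads per library. Exact 95% intervals below come from these reads, cover counting error only and say nothing about variation between cultures, since each group held 1 library and no test between conditions was possible. MYC itself stood at 836 RPKM at 0 h and 2358 at 24 h, so it was also abundant in the low c-Myc library. Synthetic RNAs added by cell number took 17.5% of all RPKM at 0 h and 2.75% at 24 h. All 6 B cell markers checked were expressed, with CD79A, a chain of the B cell receptor, at 1202 RPKM at 0 h and 460 at 24 h. The summed RPKM of the 6 was 3219 at 0 h and 1227 at 24 h. The 15 markers of other cell types summed to 47.9 RPKM at 0 h and 17.2 at 24 h, with LYZ, a myeloid enzyme, at 27.2 and 4.91. HBB, PF4 and CD3D were listed at 0 in both libraries, but other T cell markers were not. CD3E stood at 8.302 RPKM at 0 h and 1.499 at 24 h, and CD3G at 2.095 and 0.130. COL1A1, from the fibroblast and epithelial markers, stood at 8.06 RPKM at 0 h and 9.23 at 24 h. The part of such markers in the results was not tested. These levels are relative to all RNA of a library. Per cell, scaled by the synthetic RNAs as described below, 5 of the 6 B cell markers were at least 2-fold higher at 24 h and 0 at least 2-fold lower. Of all expressed genes, 97.1% were at least 2-fold higher per cell. In bulk RNA, a difference in the number of cells of a kind and in their RNA per cell cannot be told apart.

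Among the 10 members, pro-survival genes held a larger share of the summed RNA at 0 h than at 24 h, and BH3-only genes a smaller one. The 4 pro-survival genes made up 49.7% of the summed RPKM of the 10 members at 0 h and 25.4% at 24 h. The 4 BH3-only genes went from 17.0% to 35.2%, and BAX with BAK1 from 33.4% to 39.4%. For MCL1 and BCL2L1 the chosen rows in these shares are those of short isoforms, as described below. With the rows of the canonical isoforms, a setting added after seeing the data, the pro-survival share was 48.8% at 0 h and 27.1% at 24 h. The shares also depend on which relatives are counted. With 5 further expressed relatives of known role added (BCL2L2, which is pro-survival, and the BH3-only genes PMAIP1, BMF, BIK and HRK), the pro-survival share was 42.2% at 0 h and 23.9% at 24 h, and the BH3-only share 30.3% and 41.2%. All these shares are set within a library, so they do not depend on how the libraries are scaled to each other. A bias with base composition that differed between the libraries would still act on them. The chosen rows ran from 39.9% to 56.6% GC for the pro-survival genes and from 47.9% to 65.8% for the BH3-only genes. No share was computed with a correction for GC content. On the deposited scale the pro-survival sum was 195 at 0 h and 131 at 24 h, the sum of BAX and BAK1 131 and 204, and the BH3-only sum 66.5 and 182. RNA shares of different genes are not amounts of protein, and the 10 proteins bind each other with unequal strength.

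**Figure D1:**
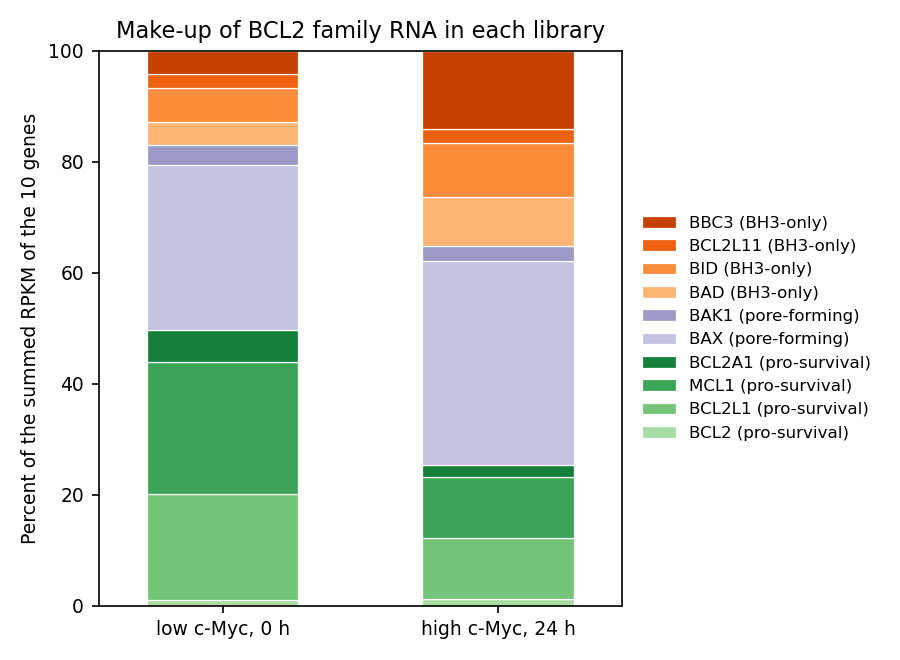
Percent of the summed RPKM of the 10 BCL2 family genes taken by each gene (vertical axis) in the 0 h and the 24 h library. The green pro-survival genes together fill 49.7% of the bar at 0 h and 25.4% at 24 h, while the orange BH3-only genes grow from 17.0% to 35.2%.

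Of the 10 members, 3 were at least 2-fold higher at 24 h and 0 at least 2-fold lower on the deposited scale. A gene counted as such when its log2 ratio of 24 h over 0 h, taken on log2(RPKM + 0.5), reached 1 or -1. Over all expressed genes 24.9% were at least 2-fold higher and 9.74% at least 2-fold lower, so 3 of 10 is near the background. The members' median log2 ratio was 0.37 against 0.22 over all expressed genes, and the roles differed in their medians. The median was -0.55 for the 4 pro-survival genes, 0.34 for the 2 pore-forming genes and 1.26 for the 4 BH3-only genes. After correction for GC content, described below with BAD, these medians were -0.48, 0.0018 and 0.61, and quantile normalization gave -1.15, -0.13 and 0.66. The rows of the canonical isoforms with the GC correction gave -0.34, -0.039 and 0.47, the closest together of these settings. All 3 genes past 2-fold were BH3-only. Centring on the median of expressed genes left 2 members higher and 1 lower, where 19.8% of all expressed genes were higher and 14.8% lower. Of all genes past 2-fold, 71.8% were higher on the deposited scale, against 57.3% after centring, 53.2% after scaling to the same RPKM sum without synthetic RNAs and 50.3% after quantile normalization.

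**Figure D2:**
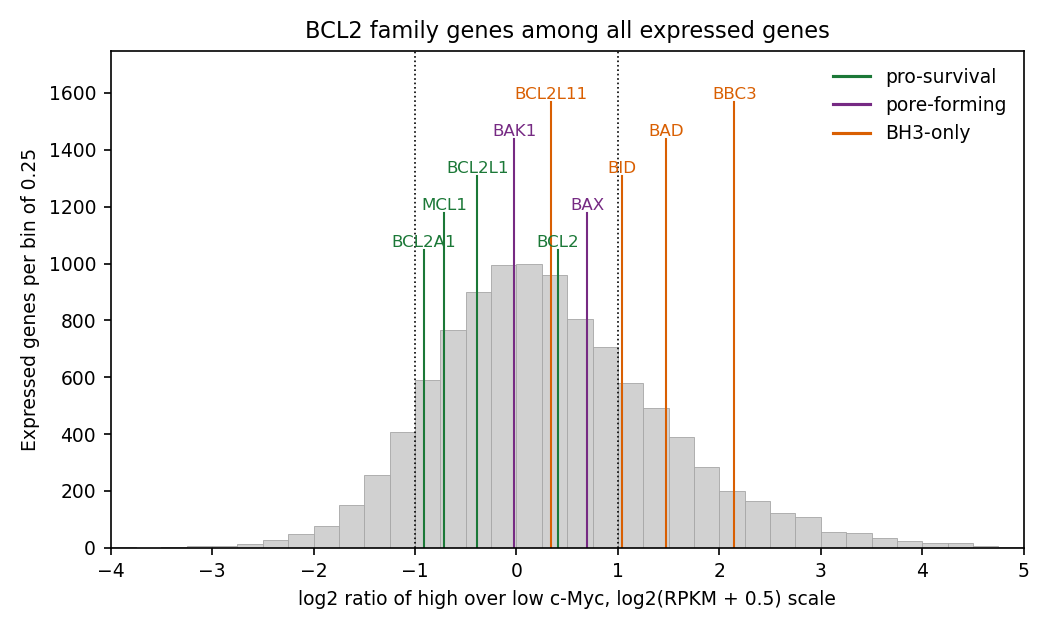
Number of expressed genes (vertical axis) by log2 ratio of high (24 h) over low c-Myc (0 h) on log2(RPKM + 0.5) (horizontal axis), with the 10 members as coloured lines and the 2-fold limits dotted. BBC3, BAD and BID lie beyond the upper limit, and BCL2A1 lies just inside the lower one.

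The BH3-only gene BBC3, which encodes PUMA, a potent killer protein best known as a p53 target, had the highest ratio of the family. Its chosen row (NM_001127242) stood at 16.1 RPKM at 0 h and 73.1 at 24 h. The level was 4.54-fold higher (95% counting interval 4.33 to 4.75), a log2 ratio of 2.15, which exceeded that of 93.3% of expressed genes. Among the members BBC3 went from the sixth highest level to the second, or from the eighth to the fourth with the rows of the canonical isoforms. All 4 of its deposited rows had folds between 4.47 and 4.56. Its log2 ratio was past 2-fold in 11 of the 12 alternatives run on the deposited scale, from 1.60 to 2.17. The exception was the row of the canonical isoform (NM_014417), which is 69.7% GC, combined with the correction for GC content, where the log2 ratio was 0.43. Among the 12, those that only changed the filter on low values could not alter the ratio.

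BAD, a BH3-only protein whose activity is switched off by growth factor signalling, had the next highest ratio. Its level was 16.1 RPKM at 0 h and 45.7 at 24 h (NM_032989), 2.84-fold higher (2.62 to 3.08), with a log2 ratio of 1.48. At 0 h BAD and BBC3 could not be ordered beyond counting error. BAD was also the chosen row whose ratio moved most with base composition. Its transcript is 65.8% GC, against a median of 50.3% over the 9948 expressed genes with a value, and ratios rose with GC content across genes (Spearman's rho 0.41, over genes that share 2 libraries and are not independent replicates). After subtracting the ratio usual for genes of like GC content, the log2 ratio of BAD was 0.29. GC content was read from annotated transcripts, whose length came within 20 bases of one that fits the deposited values for only 3 of the 10 chosen rows (BCL2L1, MCL1 and BBC3), so corrected values are approximate. Exons of BAD overlap those of GPR137 on the opposite strand, and since the use of strand in counting is not stated, reads of both cannot be told apart. Exons of BCL2L1 and BCL2L11 overlap those of ABALON and MIR4435-2HG in the same way, and those of BBC3 overlap MIR3190. On the same strand, where stranded counting would not separate them either, exons of BBC3 overlap MIR3191 and exons of MCL1 overlap ADAMTSL4-AS1.

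BID links death receptors to mitochondria, since caspase-8 cuts it into its active form. It stood at 24.0 RPKM at 0 h and 50.1 at 24 h (NM_001244567), 2.08-fold higher (2.02 to 2.15). Its log2 ratio of 1.04 was just past the limit, and it was 0.82 after centring. The GC correction gave 0.75 with a paired transcript of 700 bases (58.9% GC) that is too short for the deposited row, and 1.10 with the canonical row (NM_001196, 48.3% GC), whose length matches. Of its 7 rows, all were higher at 24 h, with folds from 1.90 to 2.10, on both sides of 2-fold. BCL2L11, which encodes BIM, a killer of lymphocytes deprived of cytokine, differed less. Its chosen row (NM_006538) stood at 10.3 RPKM at 0 h and 13.2 at 24 h, 1.28-fold higher (1.24 to 1.33), and quantile normalization turned its log2 ratio from 0.34 to -0.04.

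**Figure D3:**
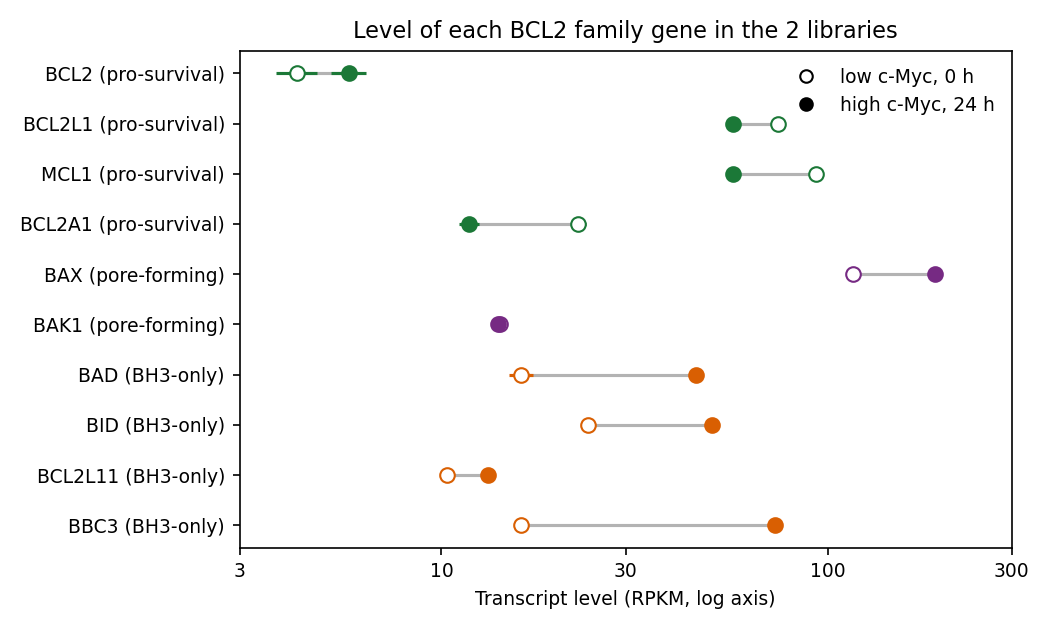
RPKM of each member (horizontal log axis) at 0 h (low c-Myc, open circles) and 24 h (high c-Myc, filled circles), coloured by role, with exact 95% counting intervals where wider than the symbol. The symbols of BBC3 lie farthest apart, at 16.1 and 73.1, and those of BAK1 cover each other at 14.2 and 14.0.

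BAX, which forms the pores once activated, was the most abundant member in both libraries. Its level was 117 RPKM at 0 h and 190 at 24 h (NM_138764), 1.63-fold higher (1.58 to 1.67), with a log2 ratio of 0.70. That ratio was 0.29 after the GC correction, 0.20 with the canonical rows and the GC correction, and 0.19 after quantile normalization. Over all expressed genes the medians at these settings were 0.23, 0.23 and -0.09. The 4 rows of BAX had folds from 1.27 to 1.68. BAK1, the other pore-forming gene, did not differ beyond counting error on the deposited scale. It stood at 14.2 RPKM at 0 h and 14.0 at 24 h (fold 0.985, interval 0.938 to 1.03). Its log2 ratio of -0.02 was -0.24 after centring, -0.33 after scaling to equal sums, -0.28 after the GC correction and -0.45 after quantile normalization. BAX RNA thus exceeded BAK1 RNA 8.22-fold at 0 h and 13.6-fold at 24 h. Reads of BAK1 may be shared with its processed copies in the genome and with GGNBP1, whose exons overlap on the opposite strand.

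The promoter of BAX holds 4 copies of CACGTG, the canonical E-box that c-Myc binds with its partner MAX, which reads the same on both strands. Promoters were searched from 250 bases before to 50 bases after each RefSeq start site (build GRCh38.p14). The motif was in 7.26% of all 35116 promoters and in 9.76% of the 11316 of expressed genes, and 4 or more copies were in 5 promoters of all. The members had 15 promoters, of which 4 (26.7%) held the motif, 1 each of BAX and BBC3 and 2 of the 5 of BID, which overlap and share 1 copy. They are shown with the motif in capitals because they hold the family's copies of it. No relation between the motif and the ratios was tested, and the members were chosen with their ratios known. The BAX stretch lies at chr19:48954715-48954874 on the plus strand, just upstream of the start site, with copies beginning 138, 93, 45 and 14 bases before it. The BBC3 stretch lies at chr19:47232854-47232917 on the minus strand, with its copy 232 bases before the start site. The BID stretch lies at chr22:17774044-17774129 on the minus strand, with its copy beginning 106 bases before 1 start site and 47 bases before another.
BAX: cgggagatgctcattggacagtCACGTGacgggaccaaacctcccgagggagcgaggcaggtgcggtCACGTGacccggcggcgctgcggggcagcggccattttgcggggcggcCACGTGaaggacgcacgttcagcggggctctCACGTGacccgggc
BBC3: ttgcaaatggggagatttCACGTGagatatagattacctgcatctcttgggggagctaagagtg
BID: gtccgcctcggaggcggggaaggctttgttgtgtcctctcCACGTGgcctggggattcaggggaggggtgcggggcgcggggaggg
A match is a description of the letters in these windows. No binding was measured here, and the upstream windows of BCL2, BCL2L1, BCL2A1, BAK1, BAD and BCL2L11 without the motif say nothing about c-Myc elsewhere in those genes.

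Of the 4 pro-survival genes, MCL1, BCL2L1 and BCL2A1 had lower values at 24 h on the deposited scale. MCL1 encodes a short-lived protein that B cells need to survive. Its chosen row, that of an extra-short isoform (NM_001197320), stood at 93.3 RPKM at 0 h and 56.9 at 24 h. The fold was 0.609 (0.599 to 0.620), against 0.744 in the row of the long isoform. BCL2L1 encodes BCL-XL and the short BCL-XS, and its chosen row is that of BCL-XS (NM_001191). This row stood at 74.6 RPKM at 0 h and 57.0 at 24 h. The fold was 0.764 (0.747 to 0.781), against 0.789 in the row of BCL-XL. At 0 h MCL1 exceeded BCL2L1 1.25-fold, and at 24 h the counting intervals of these rows overlapped. With the rows of the long isoforms of both genes, MCL1 exceeded BCL2L1 1.18-fold at 0 h and 1.12-fold at 24 h, and the intervals did not overlap at either time.

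BCL2A1, an NF-kB target active in stimulated B cells, had the lowest log2 ratio of the family. Its level was 22.6 RPKM at 0 h and 11.8 at 24 h (NM_004049), a fold of 0.520 (0.483 to 0.560). The log2 ratio of -0.92 was just short of the limit and lay above that of only 11.4% of expressed genes. It passed the limit after centring (-1.14), after scaling to equal sums (-1.22) and after quantile normalization (-1.39). The GC correction gave -0.54, and there BCL2L1 had the lowest log2 ratio of the members, -0.59. Among the members BCL2A1 went from the fifth highest level to the ninth.

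BCL2 itself, the founder of the family, was the least abundant member in both libraries. Its chosen row (NM_000657, the beta isoform) stood at 4.22 RPKM at 0 h and 5.74 at 24 h, a fold of 1.36 (1.16 to 1.60). Its other row (NM_000633, the alpha isoform) stood at 3.05 RPKM at 0 h and 2.39 at 24 h, a fold of 0.781 (0.712 to 0.858). The GC correction gave log2 ratios of 0.73 for the chosen row and -0.13 for the alpha row, and neither row fits its paired transcript in length. The direction for BCL2 therefore depends on the row. Against the chosen rows, BAX exceeded BCL2 27.7-fold at 0 h and 33.0-fold at 24 h. With the alpha rows of both genes these values were 37.6 and 77.1.

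The rows of a gene are not separate measurements of its isoforms. The 10 members had 45 transcript rows, and 2 pairs of rows, in BID and in BCL2L11, rested on exactly the same numbers of reads in both libraries, so reads of shared exons were counted in more than 1 row. BAD, BBC3, BAX and BID were higher at 24 h in every row, and MCL1, BCL2L1 and BCL2A1 lower in every row. For MCL1 the fold was 0.609 in the chosen row, that of an extra-short isoform, and 0.744 (0.732 to 0.756) in the row of the long protective isoform (NM_021960, RPKM 84.5 and 62.9). For BCL2L1 the chosen row is that of the short death-promoting BCL-XS, and the row of BCL-XL (NM_138578) stood at 71.4 and 56.3, a fold of 0.789. In BCL2L11, 16 of 18 rows were higher at 24 h and 2 were lower. The 2 lower rows were NM_207002, at 13.1 and 10.3, and NM_001204113, at 8.44 and 7.52. By mean level NM_207002 (11.7) came close to the row that was chosen (11.8), so the direction given for BCL2L11 also rests on the choice of row.

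**Figure D4:**
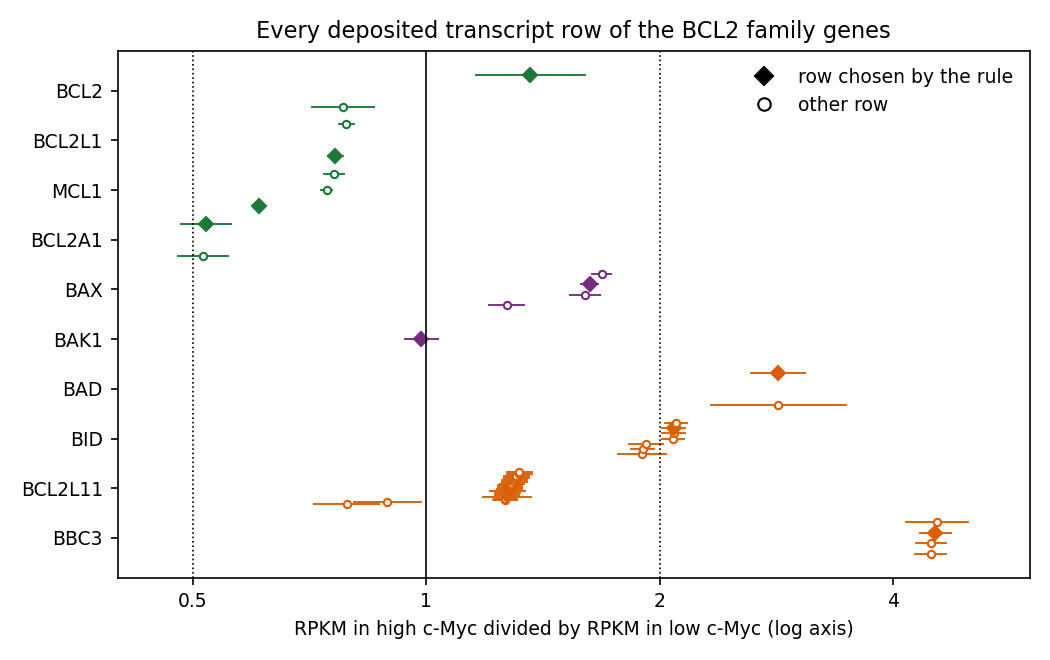
Fold of RPKM, high c-Myc (24 h) over low c-Myc (0 h) (horizontal log axis), for each of the 45 deposited transcript rows of the 10 members, with exact 95% counting intervals as bars and the chosen row as a diamond. The rows of BCL2 and BCL2L11 lie on both sides of 1, and those of BBC3 lie together between 4.47 and 4.56.

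Within each library the balance between opposing members also differed. BAX exceeded MCL1 1.25-fold at 0 h and 3.33-fold at 24 h, and exceeded BCL2L1 1.56-fold and 3.33-fold. With the rows of the canonical isoforms, BAX exceeded MCL1 1.36-fold and 2.93-fold, and BCL2L1 1.61-fold and 3.26-fold. BBC3 stood at 0.173 of the level of MCL1 at 0 h and at 1.29 times its level at 24 h. With the rows of the canonical isoforms in place of the chosen rows, these last values were 0.144 and 0.865, so that BBC3 stayed below MCL1. It then also stayed below BCL2L1, at 0.170 and 0.965 of its level. With the canonical rows and the GC correction, the log2 ratios were 0.20 for BAX, -0.13 for MCL1, -0.55 for BCL2L1 and 0.43 for BBC3. As reported they were 0.70, -0.71, -0.39 and 2.15, so the differences in balance were smaller under that correction. From the highest to the lowest level, the order at 0 h was BAX, MCL1, BCL2L1, BID, BCL2A1, BBC3, BAD, BAK1, BCL2L11 and BCL2. Counting intervals overlapped there for BID with BCL2A1 and for BBC3 with BAD. At 24 h the order was BAX, BBC3, BCL2L1, MCL1, BID, BAD, BAK1, BCL2L11, BCL2A1 and BCL2, with overlap for BCL2L1 with MCL1 and for BAK1 with BCL2L11.

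Per cell, every member was higher at 24 h. Of the synthetic RNAs, 46 reached an RPKM of 1 at both times, and these had a median log2 ratio of -2.56 (interquartile range -2.84 to -2.17), which was subtracted to compare levels per cell. All 10 members were then at least 2-fold higher and 0 at least 2-fold lower, where over all expressed genes 97.1% were at least 2-fold higher and 0.0876% at least 2-fold lower. The count for the members is therefore that of nearly all genes. BBC3 was 26.7-fold higher per cell, BAD 16.7-fold, BID 12.3-fold, BAX 9.56-fold and BCL2 8.01-fold. At the other end BCL2A1 was 3.06-fold, MCL1 3.59-fold, BCL2L1 4.49-fold, BAK1 5.80-fold and BCL2L11 7.54-fold higher. In the column the authors renormalized to the synthetic RNAs, the folds ran from 2.41 for BCL2A1 (10.5 at 0 h and 25.3 at 24 h) to 21.6 for BBC3 (7.38 and 160, on that column's scale). The order of the members by fold is the same per cell as on the deposited scale by construction.

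Other BCL2 relatives lay on both sides of 0, and the further BH3-only genes PMAIP1, BMF and BIK did not share the higher values of BBC3, BAD and BID. Of 13 further family genes, 9 were expressed, of which 1 was at least 2-fold higher and 1 at least 2-fold lower on the deposited scale. Their median log2 ratio was -0.0042. Over all expressed genes 24.9% were at least 2-fold higher and 9.74% at least 2-fold lower, with a median of 0.22. BCL2L12 was the higher gene, at 9.14 RPKM at 0 h and 20.2 at 24 h and a log2 ratio of 1.10. BNIP3L, a receptor for the removal of mitochondria, was the lower gene, at 17.7 RPKM at 0 h and 5.18 at 24 h and a log2 ratio of -1.68. The 4 expressed BH3-only relatives are named here after their values were seen. PMAIP1, which encodes NOXA, stood at 43.0 RPKM at 0 h and 29.2 at 24 h, a log2 ratio of -0.55. BMF stood at 15.5 and 8.48 (-0.84), HRK at 1.43 and 0.667 (-0.73), and BIK at 17.8 and 20.5 (0.19). HRK lay near the filter on low values and passed it only through its level at 0 h, so its ratio is not counted as support. The 4 relatives summed to 77.8 RPKM at 0 h and 58.8 at 24 h, against 66.5 and 182 for the 4 BH3-only members. BNIP3L was also the 1 expressed gene of this list that was not 2-fold higher per cell, at a log2 ratio of 0.88. Both BOK, another pore-forming relative listed at 0 in both libraries, and BCL2L10 were not expressed by the filter.

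Downstream of the BCL2 family, proteins released from the mitochondrion set off the caspases that take the cell apart. All 13 genes of that list were expressed, 3 were at least 2-fold higher and 0 at least 2-fold lower, and the median log2 ratio was 0.42. ENDOG, a mitochondrial nuclease, had the highest, at 4.10 RPKM at 0 h and 44.1 at 24 h and a log2 ratio of 3.28. Of 12 genes known to control the family by transcription or protein turnover, 10 were expressed, 2 were at least 2-fold higher and 1 at least 2-fold lower, with a median of 0.17. E2F1, a driver of S phase, had the highest log2 ratio, 2.71, with 8.60 RPKM at 0 h and 59.0 at 24 h, and MYC was the other higher gene. DDIT3, the stress-induced factor CHOP, had the lowest, -1.51, with 12.3 RPKM at 0 h and 3.98 at 24 h. Over all expressed genes 24.9% were at least 2-fold higher and 9.74% at least 2-fold lower, with a median of 0.22. For both lists the counts of higher genes, 3 of 13 and 2 of 10, are near that background.

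**Figure D5:**
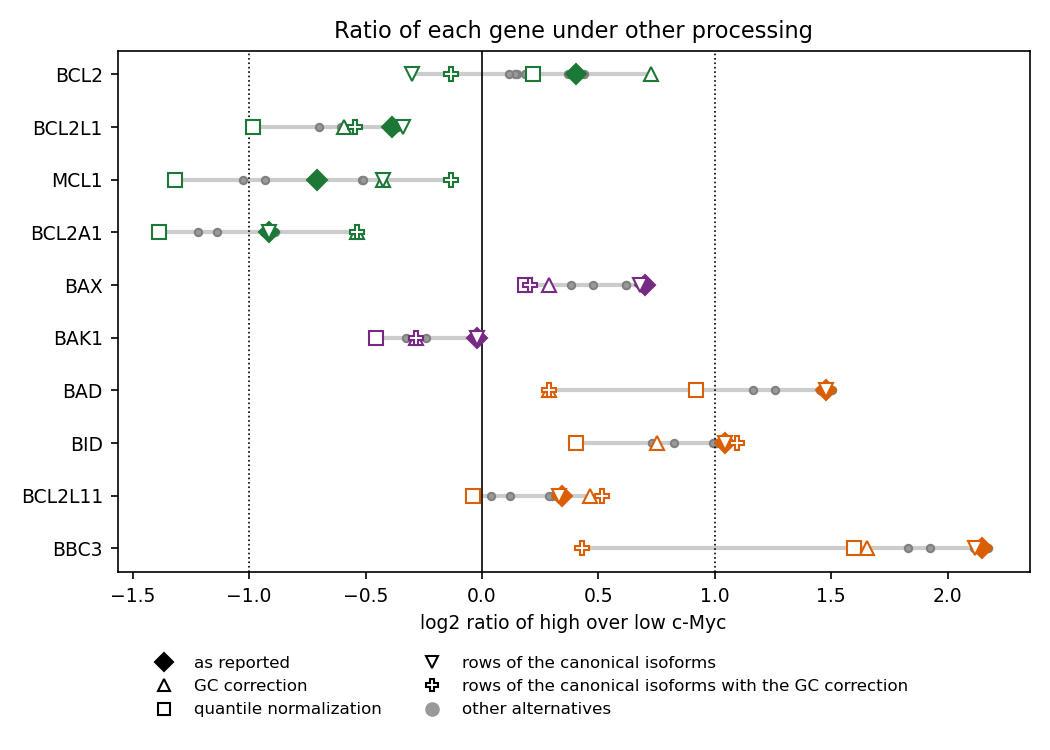
log2 ratio of each member (horizontal axis) as reported (diamonds) and under each processing alternative on the deposited scale, with the GC correction, quantile normalization, the canonical rows and the canonical rows with the GC correction marked by their own symbols and the 2-fold limits dotted. BBC3 lies beyond the upper limit, from 1.60 to 2.17, except at 0.43 with the canonical rows and the GC correction, while BAD goes down to 0.29 with the GC correction and BCL2 ranges from -0.30 to 0.73.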

How the data were processed

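For each library the authors deposited RPKM values of 34194 transcript rows and 92 synthetic RNAs, per the file headers. A second signal column deposited by the authors holds the same values renormalized to the synthetic RNAs, and how this was done is not stated. Bowtie and the build hg18 are named in the submitters' processing notes. The sources used here do not name the counting tool, its filters or its use of strand. Per the labels' protocols, synthetic RNAs were added by cell number, RNA was selected for poly(A), and strand was kept by a dUTP method with 15 PCR cycles.

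Library sizes were recovered as the values at which RPKM times transcript length (GENCODE release 29, paired by RefSeq accession) gave whole reads. The reads of each row were then the smallest whole numbers that fit both libraries at 1 length between 100 and 12000 bases, so true reads can be a multiple and intervals err on the wide side. Intervals for folds were exact binomial, and for levels exact Poisson. Ratios used a pseudocount of 0.5 and folds none. The GC correction subtracted a running median over 401 genes. RPKM values with 1 library per group allow no test, and no p-value is given. The procedure was tested on simulated data.

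The members and lists were chosen with earlier results of these data known. All 10 members are named, and of each further list the genes with the highest and lowest log2 ratio, except for 1 that is not reported here. GC content had a value for 96.8% of expressed genes and for all members, although the paired transcript differed by more than 20 bases from any fitting length for the chosen rows of BCL2, BCL2A1, BAX, BAK1, BAD, BID and BCL2L11. Promoters are from RefSeq (GRCh38.p14), which had an entry for 9 of 10 members, MCL1 being the other. Python 3.11.15, numpy 2.4.6, pandas 2.3.3, scipy 1.17.1 and matplotlib 3.10.9 were used.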

Additional observations from a re-analysis of the deposited data

How the results depend on the processing

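The median log2 ratio of the members, 0.37, was 0.23 with the rows of a gene summed, 0.22 with their mean, 0.15 after centring, 0.076 after scaling to equal RPKM sums, 0.073 after quantile normalization, 0.29 after the GC correction, 0.16 with the canonical rows and 0.036 with the canonical rows and the GC correction, the last 2 chosen after seeing the data. Members at least 2-fold higher, 3 as reported, were 2 with the mean of the rows, after centring and after equal sums (BBC3 and BAD), 1 after quantile normalization (BBC3), 1 after the GC correction (BBC3), and 1 with the canonical rows and the GC correction (BID). Over all expressed genes 24.6%, 19.8%, 18.2%, 17.3%, 22.1% and 22.1% were higher at these 6 settings. Members at least 2-fold lower, 0 as reported, were 1 after centring, 2 after scaling to equal sums and 2 after quantile normalization (BCL2A1 and MCL1 in the last pair). The pro-survival share at 0 h and 24 h was 34.3% and 17.2% with summed rows, which count shared reads repeatedly, 50.2% and 27.9% with mean rows, 48.8% and 27.1% with canonical rows, and 42.2% and 23.9% with 5 further relatives, added after seeing the data. With these relatives the BH3-only share was 30.3% and 41.2%, against 17.0% and 35.2% as reported. Genes lower over all expressed genes, 1001 as reported (9.74%), were 1516 (14.8%), 1642 (16.0%) and 1753 (17.1%) after centring, equal sums and quantile normalization. Per cell, all members tested were higher under every alternative run. No paired analysis was possible because each group held 1 library. Counting error was widest for BCL2, and differences between cultures cannot be seen at any depth with 1 library per group.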
